A study of Mus musculus with 6 samples.

Results

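The genes described here are the SGK kinases, the glucocorticoid receptor and common glucocorticoid-responsive genes, 9 genes of the 55536 in the deposited tables. They were chosen by name (Sgk1, Sgk2, Sgk3, Nr3c1, Tsc22d3, Fkbp5, Zbtb16, Hsd11b1 and Nedd4l) and matched by Ensembl identifier. The choice was made knowing that Sgk1 was among the genes with the highest fold change between the groups, so the members' differences are given as a description without a p-value. Their RNA was measured by sequencing in SVEC4-10, an immortalised mouse line labelled as endothelial and grown in medium with fetal bovine serum. The control group is 3 libraries labelled untreated, and the other group is 3 libraries from cells treated for 24 hours with nattokinase, a fibrin-degrading serine protease from Bacillus subtilis. The labels state no dose, no label names a steroid treatment of either group, and the steroid content of the serum is not stated. No label says that replicates were separate cultures, so the spread between them may be technical.

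Glucocorticoids enter cells and bind the glucocorticoid receptor, the product of Nr3c1, which waits in the cytoplasm in a complex with heat shock protein chaperones. The receptor then moves to the nucleus and binds, as a dimer, a palindromic DNA site called the glucocorticoid response element. SGK1, the serum- and glucocorticoid-regulated kinase, is a short-lived enzyme related to the AKT kinases and controlled to a large part at the level of its transcript, which serum growth factors, hormones and cell shrinkage also raise. It is known for phosphorylating the ubiquitin ligase NEDD4L, which keeps sodium channels at the surface of kidney cells.

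Among RefSeq promoter windows (GRCm38.p6, 250 bases before to 50 after an annotated start), 1 of the 6 windows of Sgk1 holds the full glucocorticoid response element (AGAACA, any 3 bases, then its reverse complement TGTTCT), a motif that reads the same on both strands. The bases of that window before its annotated transcript start (plus strand, chr10:21993640-21993889) are shown because they hold the element, which is in capitals.

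Sgk1: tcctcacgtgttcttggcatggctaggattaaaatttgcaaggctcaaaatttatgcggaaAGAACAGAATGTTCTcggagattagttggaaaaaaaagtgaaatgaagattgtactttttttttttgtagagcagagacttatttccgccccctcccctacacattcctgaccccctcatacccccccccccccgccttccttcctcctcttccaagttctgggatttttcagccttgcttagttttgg

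The element lies on chromosome 10 at 21993701 to 21993715, in no annotated exon of Sgk1 and inside the introns of 5 of its GENCODE M21 transcripts. It ends 175 bases before the annotated transcript start at 21993890 and 951 bases before that at 21994666, the start of the Sgk1 transcript numbered first in the annotation. Exact matches of the 12 fixed letters were found in 3 of 32851 windows, 0.00913% of all windows of this length. Windows of 4 of the 9 members are reported here, 11 windows in all. No match is given for the members outside these 4, so nothing is said of their promoters. The best match of each of the 3 reported genes besides Sgk1 is shown for comparison. It runs 5′ to 3′ on the gene's strand, with the letters that match the element in capitals.

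Tsc22d3 (chrX:140548778-140548792, minus strand): cGAgCAgttTtTaCT

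Fkbp5 (chr17:28486290-28486304, minus strand): tGAAgAggcgGagaT

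Hsd11b1 (chr1:193242485-193242499, minus strand): AGtAaAcatTGTcCa

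These sites match 8, 6 and 8 of the 12 letters, and the other 2 windows of Tsc22d3 match 7 at best. A match of at least 8 letters occurred in 57.0% of all windows, and one of at least 6 in 99.9%. Of the 40 genes on a list of other glucocorticoid-responsive genes, 33 had windows, 46 in all, and 0 of these held the full element. The nearest was Trim63, a muscle ubiquitin ligase gene, with 11 letters (chr4:134314911-134314925, plus strand). The full element was in 0.00913% of all windows, so 46 windows are too few to read anything from the 0. Of the 46, 4 matched at least 10 letters, beside 1.84% of all windows. Among these 4 are overlapping windows of Fam107a that share a site. A window without a match says only that these letters are not in it.

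**Figure D1:**
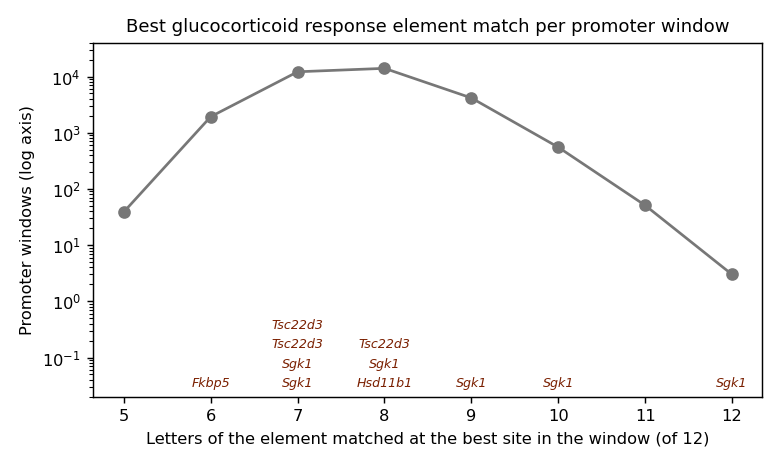
Number of promoter windows (log axis) by how many of the 12 fixed letters of the glucocorticoid response element their best site matches. Gene names mark the reported windows of members at their own match, and the height of a name has no meaning. The Sgk1 window at 12 letters is 1 of 3 such windows among 32851.

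The reads behind the values were between 15044778 and 16496433 per control library and between 17525090 and 18341370 per nattokinase library. Protein-coding genes took 95.4% to 96.7% of control reads and 98.3% to 98.4% of nattokinase reads, and 1 gene resembling 18S ribosomal RNA took 1.85% to 2.89% and 0.525% to 0.610%, with no overlap between the groups in either share. Values scaled to all reads carry that difference, and rescaling to protein-coding totals turned the balance of calls from 612 higher and 354 lower genes to 478 and 497, while the log2 fold change of Sgk1 went from 0.94 to 0.91. The endothelial label found little support among markers: of 12 defining endothelial genes 0 reached the filter on low values and 4 (Tie1, Erg, Cldn5, Emcn) had no read at all, whereas 7 of 11 fibroblast and mural genes and 2 of 5 lymphatic genes (Pdpn and Flt4) reached it. The summed level of the fibroblast and mural markers ran from 2537 to 2647 FPKM in the controls and from 2765 to 2835 with nattokinase, but this rise was that of Acta2, the smooth muscle actin gene (459 ± 23.1 and 907 ± 14.1 FPKM, called higher). Without Acta2 the sums were 2067 to 2215 and 1849 to 1920 FPKM, with the collagen gene Col3a1 called lower (144 ± 2.62 and 95.8 ± 1.14 FPKM) and Col1a1 lower in every treated library without a call (1403 ± 67.3 and 1236 ± 36.2 FPKM). The PDGF receptor genes Pdgfra (7.45 ± 0.22 and 8.32 ± 0.41 FPKM) and Pdgfrb (17.0 ± 0.73 and 19.4 ± 1.67 FPKM) were higher in every treated library, also without a call. Col1a2 and Dcn, the other markers of this class at the filter, overlapped between the groups. The lymphatic markers summed to 125 to 136 and 110 to 115 FPKM, of which Pdpn was called lower and Flt4 overlapped between the groups. The corresponding endothelial sums were 0.856 to 1.63 and 1.09 to 1.23 FPKM, the leukocyte sums (2 of 7 genes at the filter, Ptprc at 0 reads) 6.00 to 7.37 and 8.04 to 8.34, and the epithelial sums (2 of 6 genes) 6.48 to 7.87 and 7.30 to 8.92. Of the leukocyte genes at the filter, Cd68 was called higher (1.19 ± 0.33 and 2.42 ± 0.35 FPKM), and Cd14 overlapped between the groups and was not called (5.44 ± 0.59 and 5.78 ± 0.20 FPKM). The part of these marker shifts in the results below was not tested, and fewer cells of a type cannot be told apart from less RNA per cell.

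Sgk1 transcripts were about doubled in the nattokinase libraries. The controls held 11.0, 12.5 and 13.5 FPKM (fragments scaled to exon length and to the library's assigned reads) and the nattokinase libraries 22.5, 24.9 and 26.2 FPKM. Every treated library lay above every control, with a gap between the groups wider than the range of either. The means were 12.3 ± 1.24 and 24.5 ± 1.88 FPKM (SD, n = 3 each), a ratio of 1.99, and the log2 fold change on the log2(FPKM + 1) scale was 0.94 (SE 0.077), which ranked 16 from the top of 10913 genes tested. The counts behind it were large, 874, 919 and 1089 reads in the controls and 1990, 2139 and 2358 with nattokinase. Sgk1 lies on chromosome 10, 21882184 to 21999903, with 4903 bases of merged exons, and shares no exon with another gene. Values per gene do not show which of its 13 annotated transcripts carried the change. Sgk1 moved from between rank 3772 and 4392 by level among genes with a read in the controls to between rank 1986 and 2358 with nattokinase.

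The other SGK kinases were far lower. Sgk3, which encodes a kinase brought to endosomes by a lipid-binding domain, had 1.34, 1.35 and 1.26 FPKM in the controls and 1.40, 1.81 and 1.47 with nattokinase. The groups did not overlap, but the gap between them was smaller than the spread among the treated libraries, and limma did not call it (log2 fold change 0.14, SE 0.088; chromosome 1, 9798107 to 9900845). Sgk2, a paralog best known from liver and kidney, had 1 read in nattokinase replicate 1 and 0 reads in the other 5 libraries, where 3 reads would correspond to 0.048 to 0.058 FPKM. Per length, Sgk1 stood 8.20-, 9.22- and 10.7-fold above Sgk3 in the controls and 16.0-, 13.7- and 17.9-fold above it with nattokinase. Akt1, the most abundant of the related AKT kinase genes, stayed above Sgk1 in every library, with 72.8 to 76.5 FPKM in the controls and 72.1 to 73.9 with nattokinase.

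The receptor gene Nr3c1 (chromosome 18, 39410545 to 39519421) was at a moderate level in both groups. It had 8.91, 7.27 and 7.93 FPKM in the controls and 9.03, 8.67 and 9.12 with nattokinase. The groups overlapped through control replicate 1, and the log2 fold change of 0.14 (SE 0.070) was not called. Without that library it was 0.21 and without control replicate 2 it was 0.08, uncalled in both cases. Hsd11b1, whose enzyme regenerates active glucocorticoid from its inert keto form, had 0, 0 and 1 read in the controls and 1 read in each treated library. The limit that 3 reads set for Hsd11b1 is 0.038 to 0.047 FPKM, so both groups were below it.

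Of the 3 classical targets, Tsc22d3 and Fkbp5 did not rise with Sgk1, and Zbtb16 had 0 reads. Tsc22d3, which encodes the anti-inflammatory leucine zipper protein GILZ, had 4.76, 6.08 and 5.63 FPKM in the controls and 4.19, 3.69 and 4.37 with nattokinase. All treated libraries lay below all controls, the nearest pair being control replicate 1 and nattokinase replicate 3. The means were 5.49 ± 0.67 and 4.08 ± 0.35 FPKM (SD, n = 3 each), a ratio of 0.744 and a log2 fold change of −0.35 (SE 0.086; chromosome X, 140539528 to 140600659), which limma called lower. The call was lost when any 1 library other than control replicate 1 was left out, with log2 fold changes from −0.43 to −0.28 over the 6 omissions, and also without the filter on low values.

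Fkbp5, which encodes a co-chaperone that lowers the receptor's affinity for hormone and is itself induced by it, had 8.16, 8.09 and 8.70 FPKM in the controls and 8.29, 8.20 and 7.99 with nattokinase (chromosome 17, 28399094 to 28517527). The groups overlapped, with a log2 fold change of −0.02 (SE 0.053) whose sign turned without control replicate 3 (0.0049). Zbtb16, a zinc finger gene that glucocorticoids raise from near silence in many cells, had 0 reads in all 6 libraries (chromosome 9, 48654297 to 48836222). That allows up to 3 reads per library, or 0.031 to 0.038 FPKM, for counting error only. The ratio of Sgk1 to Tsc22d3 within a library was 2.31, 2.05 and 2.39 in the controls and 5.37, 6.74 and 6.00 with nattokinase, and that of Sgk1 to Fkbp5 was 1.35, 1.54 and 1.55 and then 2.72, 3.04 and 3.28.

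Nedd4l, the gene of the ubiquitin ligase that SGK1 phosphorylates, was low in both groups, at 1.99, 1.95 and 2.07 FPKM in the controls and 1.78, 2.05 and 1.86 with nattokinase (chromosome 18, 64887705 to 65217828). The groups overlapped, with a log2 fold change of −0.05 (SE 0.073). Its exons overlap those of A330084C13Rik, and strand use is not stated, so reads of the pair cannot be told apart.

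**Figure D2:**
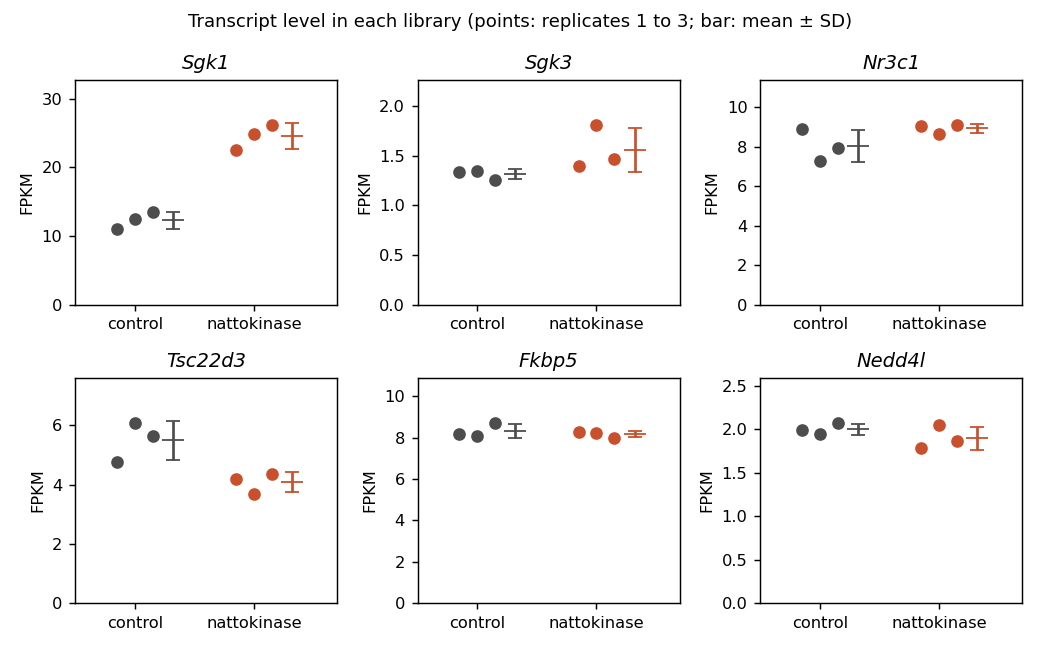
Level in FPKM of the 6 tested members in each library, with points in the order of replicates 1 to 3 and bars giving the mean ± SD of 3. Sgk1 runs from 11.0 to 13.5 FPKM in the controls and from 22.5 to 26.2 with nattokinase, Tsc22d3 lies lower with nattokinase, and Nr3c1, Fkbp5 and Nedd4l overlap between groups.

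Of the 9 members, 6 passed the filter of 1 FPKM in at least 3 libraries, each of them in all 6 libraries, and 3 (Sgk2, Zbtb16 and Hsd11b1) did not. Of the 6, limma called 1 higher and 1 lower at a Benjamini-Hochberg adjusted p of 0.05. Over all 10913 genes tested the same rule called 8.85%, with 5.61% higher and 3.24% lower. In 3 of the 6 members the groups did not overlap, as in 28.8% of all genes tested (17.4% with nattokinase higher and 11.4% with it lower). Because the members were chosen with this comparison known, nothing is read from these counts.

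**Figure D3:**
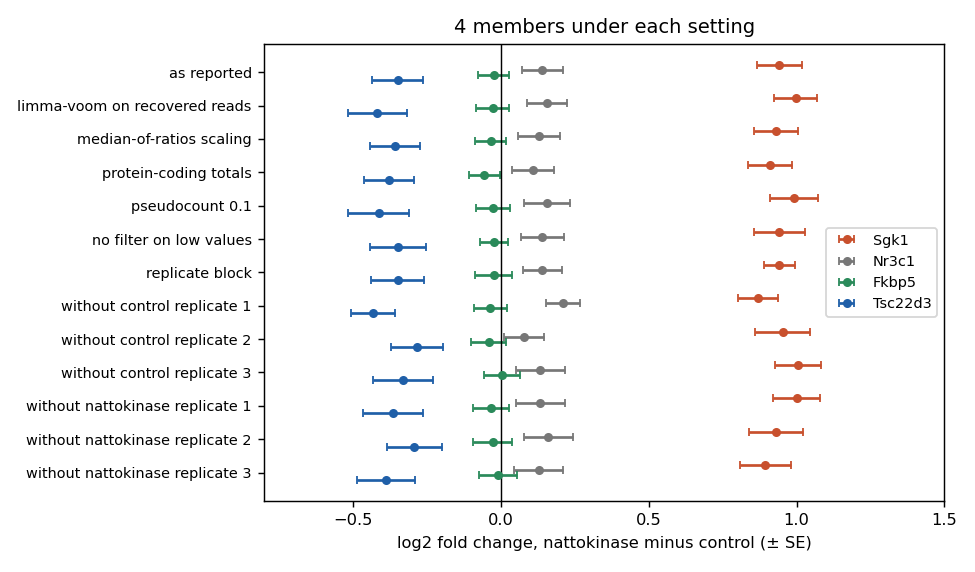
Log2 fold change (± SE) of Sgk1, Nr3c1, Fkbp5 and Tsc22d3 as reported and under each other scaling, filter, model or omitted library. Sgk1 stays between 0.87 and 1.004, Tsc22d3 stays below 0, and Fkbp5 lies near 0 throughout.

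Of the other glucocorticoid-responsive genes, more were called higher than lower. On a list of 40 such genes without the members, 22 were tested, of which 9 were higher and 2 lower by limma (5.61% and 3.24% of all genes), and 11 were not called. Limma-voom called 10 higher and 3 lower (7.99% and 4.23% of all genes). An unadjusted limma p under 0.05 gave 12 higher and 3 lower (14.2% and 8.67%). The list's median log2 fold change was 0.22, beside 0.01 for all genes tested. Dusp1, which encodes a phosphatase that switches off MAP kinases, rose from 11.9 ± 0.96 to 21.2 ± 1.47 FPKM (SD, n = 3 each; log2 fold change 0.78, SE 0.069, limma adjusted p = 0.00020). Errfi1, a feedback inhibitor of the EGF receptor, rose from 7.40 ± 0.39 to 11.9 ± 0.29 FPKM (limma adjusted p = 0.00021). Bcl6, a transcriptional repressor gene, rose from 1.69 ± 0.20 to 3.43 ± 0.38 FPKM (limma adjusted p = 0.00092). Smaller rises belonged to Anxa1, the annexin A1 gene, from 237 ± 14.9 to 301 ± 12.8 FPKM, and to Nfkbia, the inhibitor of NF-kB, from 18.1 ± 1.34 to 23.1 ± 0.75 FPKM. The AP-1 subunit gene Fosl2 rose by 0.25 on the log2 scale (limma adjusted p = 0.0076). Without the filter on low values 6 of the list's 11 calls were lost, those of Anxa1, Nfkbia, Fosl2, Usp2, Tsc22d1 and Zfp36, which left 3 higher and 2 lower. Several of these genes, among them Dusp1, Errfi1, Nfkbia and Fosl2, are also known to respond to growth factors or inflammatory signals.

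The members of that list that fell were Tgm2, the transglutaminase 2 gene, from 9.90 ± 0.31 to 5.36 ± 0.34 FPKM (log2 fold change −0.78, limma adjusted p = 9.1e-05), and Sesn1, a stress-responsive sestrin gene, from 9.37 ± 0.20 to 6.99 ± 0.36 FPKM (limma adjusted p = 0.0026). The 2 most abundant members without a call were Cdkn1a, at 32.1 ± 1.85 and 29.9 ± 2.65 FPKM, and the metallothionein gene Mt1, at 24.4 ± 2.25 and 28.7 ± 2.25 FPKM. Per1, Klf9, Usp2, Tsc22d1 and Zfp36 are named after their values were seen. The clock gene Per1 had 5.36 ± 0.46 and 5.02 ± 0.54 FPKM and the Kruppel-like factor gene Klf9 10.1 ± 0.45 and 11.3 ± 0.35 FPKM, both uncalled (limma adjusted p = 0.61 and 0.14). Usp2, Tsc22d1 and Zfp36 completed the 9 higher genes with log2 fold changes of 0.43, 0.23 and 0.23. Each of these 3 calls was lost without nattokinase replicate 2 or 3 and, as stated, without the filter. That of Usp2 was also lost without control replicate 2, that of Tsc22d1 without control replicate 3, and that of Zfp36 without control replicate 1 or 3 and after rescaling to protein-coding totals (limma adjusted p up to 0.064, 0.072 and 0.14 over the omissions). Among the 18 untested genes, the liver genes Tat and Pck1 had 0 reads in every library, and Klf15 had at most 2.

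**Figure D4:**
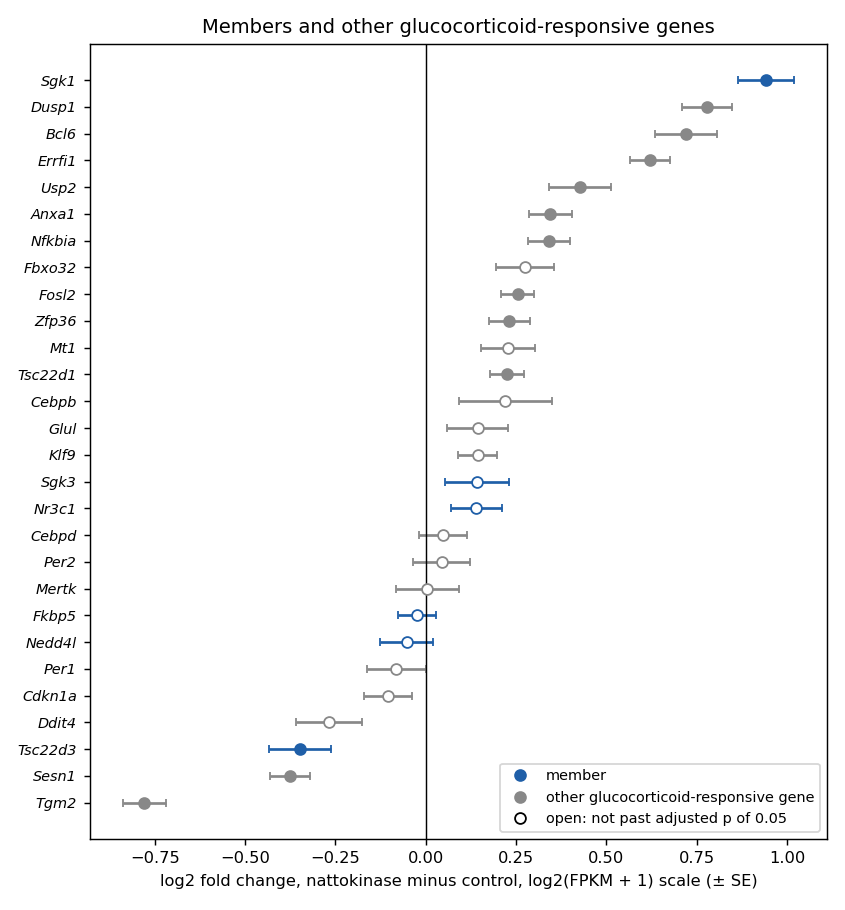
Log2 fold change (± SE) of the 6 tested members and the 22 tested genes of the other glucocorticoid-responsive list, ordered by value, with open points for genes not past an adjusted p of 0.05. Sgk1 (0.94) and Dusp1 (0.78) are at the top, Tsc22d3 (−0.35) and Tgm2 (−0.78) near or at the bottom, and Fkbp5 (−0.02) and Per1 (−0.08) near 0.

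Genes that set the receptor's activity and hormone supply mostly did not pass the test. Of 26 listed genes, which include Nr3c1, Fkbp5 and Hsd11b1, 22 were tested. Of these 1 rose and 0 fell by limma (5.61% and 3.24% of all genes), where 4 were higher and 2 lower at an unadjusted p under 0.05 (14.2% and 8.67% of all genes) and limma-voom called 3 higher and 2 lower (7.99% and 4.23% of all genes). The median log2 fold change was −0.02. The gene that rose was Hspa4, an HSP110-type nucleotide exchange factor of the chaperone cycle, from 65.5 ± 1.45 to 79.3 ± 2.03 FPKM (limma adjusted p = 0.0043). The abundant chaperone genes Hsp90ab1, at 1022 ± 18.6 and 1009 ± 27.9 FPKM, and Hspa8, at 463 ± 19.4 and 502 ± 2.05 FPKM, were not called. Nr3c2, the mineralocorticoid receptor gene, had 1 to 10 reads per library, and Hsd11b2, whose enzyme inactivates glucocorticoid, had 0 to 4.

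Of the regulators of SGK kinases 1 of 21 was called. All 21 listed genes, the mTORC2 and PI3-kinase components and Pdpk1 among them, were tested, and 1 rose and 0 fell by limma (5.61% and 3.24% of all genes). At an unadjusted p under 0.05, 3 were higher and 2 lower (14.2% and 8.67% of all genes), and limma-voom called 2 higher and 0 lower (7.99% and 4.23%). The median log2 fold change was 0.02. Without control replicate 1 the list had 3 calls by limma, and leaving out each of the other 5 libraries in turn gave 0. Akt1, at 74.6 ± 1.83 and 73.1 ± 0.96 FPKM, and Akt2, with a log2 fold change of 0.0036 and a sign that turned under other scalings, were not called.

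Among 32 substrates and transport targets of SGK kinases, Nedd4l included, 23 were tested, and 2 rose and 1 fell by limma (5.61% and 3.24% of all genes). At an unadjusted p under 0.05, 4 were higher and 2 lower (14.2% and 8.67%), and limma-voom called 3 higher and 1 lower (7.99% and 4.23%). Their median log2 fold change was −0.01. Nedd4, the close relative of Nedd4l, rose from 120 ± 4.57 to 142 ± 6.58 FPKM (limma adjusted p = 0.021), and the amino acid transporter gene Slc38a2 from 57.2 ± 1.38 to 67.4 ± 3.15 FPKM (limma adjusted p = 0.016). Omitting any 1 of control replicates 2 and 3 and nattokinase replicates 2 and 3 removed both calls (limma adjusted p up to 0.10 for Nedd4 and 0.081 for Slc38a2), which left 1 call in the list, and both were also lost without the filter on low values. The glutamine transporter gene Slc1a5 fell from 8.22 ± 0.15 to 6.58 ± 0.24 FPKM (limma adjusted p = 0.0098) and kept its call in these omissions but not without the filter on low values. Ywhaz, an abundant 14-3-3 protein gene, had 214 ± 1.89 and 227 ± 5.95 FPKM and was not called. Of the sodium channel subunits that NEDD4L is known to control, Scnn1b and Scnn1g had 0 reads in all 6 libraries, and Scnn1a had 17 to 37.

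FOXO factors are held in the cytoplasm when SGK or AKT kinases phosphorylate them, and their target genes moved in both directions. Of 26 listed genes 24 were tested, of which 5 rose and 3 fell by limma (5.61% and 3.24% of all genes). At an unadjusted p under 0.05, 6 were higher and 7 lower (14.2% and 8.67%), limma-voom called 6 higher and 5 lower (7.99% and 4.23%), and rescaling to protein-coding totals gave 4 higher and 4 lower. Their median log2 fold change was −0.01. The Kruppel-like factor gene Klf6 rose from 28.3 ± 1.10 to 42.0 ± 0.73 FPKM (limma adjusted p = 0.00016), Klf2 from 3.22 ± 0.59 to 5.69 ± 0.24 and the coregulator gene Cited2 from 44.9 ± 1.94 to 57.3 ± 1.14 FPKM. Gadd45b, a stress-response gene, rose by 0.24 and the insulin receptor substrate gene Irs2 by 0.23 on the log2 scale. Gadd45a, its relative, fell from 9.89 ± 0.75 to 6.81 ± 0.36 FPKM (limma adjusted p = 0.0019). Sesn1, which also stands in the list above, fell as well, and the thioredoxin inhibitor gene Txnip fell by 0.19 on the log2 scale. Gabarapl1 and Cdkn1b, the abundant genes without a call, had log2 fold changes of −0.12 and −0.06. The call of Gadd45b was lost without nattokinase replicate 2 or 3, that of Txnip without either of these or control replicate 2 or 3, and that of Irs2 without any 1 library but control replicate 1 and after rescaling to protein-coding totals (limma adjusted p up to 0.061, 0.12 and 0.098 over the omissions). All 3 calls were also lost without the filter on low values. Without nattokinase replicate 2 or 3 the list had 5 calls, and without the filter it had 3 higher and 2 lower.

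Genes of the osmotic stress factor NFAT5, listed because cell shrinkage is another setting that raises Sgk1, included 9 tested of 13. Of these 2 rose and 0 fell by limma (5.61% and 3.24% of all genes), with 4 higher and 0 lower at an unadjusted p under 0.05 (14.2% and 8.67%) and 2 higher and 0 lower by limma-voom (7.99% and 4.23%). The median log2 fold change was 0.10. The genes that rose were Slc38a2 and the chemokine gene Ccl2, which rose from 39.3 ± 2.26 to 83.4 ± 3.52 FPKM and also belongs to inflammatory programmes. The osmolyte genes Slc6a6, at 59.3 ± 1.48 and 63.6 ± 1.37 FPKM, and Akr1b3, at 15.1 ± 1.21 and 14.4 ± 0.52 FPKM, were not called. Omitting any 1 of control replicates 2 and 3 and nattokinase replicates 2 and 3 left the list with 1 call, as did testing without the filter on low values.

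**Figure D5:**
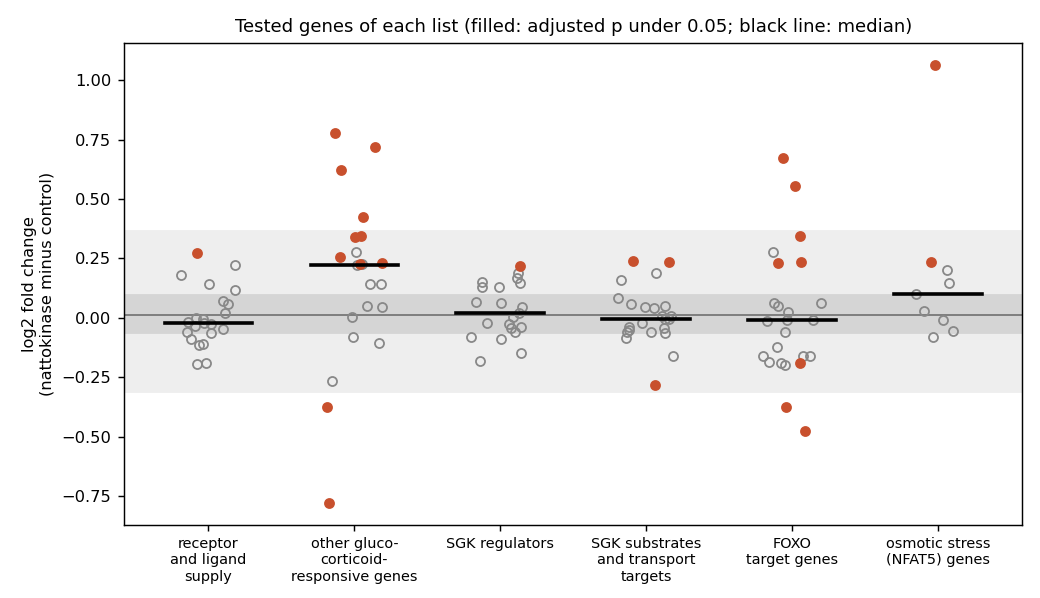
Log2 fold change of every tested gene in the 6 lists, with filled points for an adjusted p under 0.05 and a black line at each list's median. The light and dark bands hold the central 95% (−0.31 to 0.37) and 50% (−0.07 to 0.10) of all 10913 tested genes. The median of the other glucocorticoid-responsive list is 0.22, and those of the other 5 lie between −0.02 and 0.10.

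The genes whose pattern over the 6 libraries was most like that of Sgk1 were Dusp1 (Pearson's r = 0.999), Igfbp7 (0.997), Actn4 (0.997), Egr1 (0.996), Dusp6 (0.995) and B4galnt1 (0.995). They were ranked among 7152 tested genes with a mean of at least 5 FPKM. The libraries form 2 groups, so r mostly reflects the group difference and is a description only. Dusp1 has been described above. Dusp6 is another phosphatase of MAP kinases and went from 45.1 ± 3.83 to 68.7 ± 1.66 FPKM, and Egr1, an early growth response factor gene, from 34.8 ± 1.99 to 51.1 ± 1.99 FPKM. Igfbp7, a secreted IGF-binding protein gene, went from 87.0 ± 4.50 to 130 ± 4.33 FPKM, Actn4, an actin cross-linker gene, from 134 ± 3.42 to 170 ± 5.32, and B4galnt1, a ganglioside synthesis gene, from 8.17 ± 0.18 to 10.6 ± 0.40 FPKM.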

How the data were processed

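Per the submitters' processing notes, HISAT2 2.1.0, featureCounts 1.6.0, Trimmomatic 0.38 and DESeq2 1.22.1 were used beside CASAVA, FastQC and MultiQC (roles are not stated), and the build was GRCh38, a human build, although the deposited gene identifiers are mouse. The authors deposited FPKM values, 1 file per library, and the unit was found from the values: multiplied by merged exon length in GENCODE M21 (GRCm38) they were whole multiples of 1 step per library (within 0.05 for at least 99.97% of values above 0), which gives the reads. The files held 0 columns of other samples.

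Genes reaching 1 FPKM in 3 or more libraries were kept, and log2(FPKM + 1) was fitted in R 4.3.3 by limma 3.58.1 (group model, trend, robust prior, two-sided, Benjamini-Hochberg over all genes tested at 0.05). This scale understates the change of low genes. A ratio is of mean FPKM. The scripts were tested on simulated libraries. Members and lists were chosen with earlier results of these data known. Genes named are every member, in each list those called (the 8 with the smallest p where more) and up to 2 abundant ones not called, and the 6 most like Sgk1 by r; 2 list genes that this rule names are not reported here. Alternatives were limma-voom on recovered reads, other scalings, a pseudocount of 0.1, no filter, the replicate number as a block and omission of each library. Exons of Dusp1, Bcl6, Tgm2, Usp2, Zfp36, Gadd45a, Irs2, Txnip, Hspa8, Gabarapl1, Cdkn1a, Igfbp7, Actn4, B4galnt1, Slc6a6, Pdgfra and Col3a1 overlap another gene's, so their reads may be shared. Promoter sequences are from RefSeq (GRCm38.p6).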

Additional observations from a re-analysis of the deposited data

How the results depend on the processing

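Sgk1 kept its direction and its call under every alternative, with log2 fold changes from 0.87 to 1.004 over the omitted libraries. The count of members called was 2 as reported, 1 without the filter on low values, 1 with the replicate number as a block, and 1 or 2 over the omitted libraries. Genes higher numbered 612 and genes lower 354 as reported, 221 and 109 without the filter, 478 and 497 after rescaling to protein-coding totals, so that the balance of directions turned, and 328 to 720 and 197 to 486 over the omitted libraries. The cause of these changes was not tested.

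Calls in the receptor and ligand supply list went from 1 to 5 with limma-voom and 2 with protein-coding totals (1 to 2 over omitted libraries). The SGK regulators went from 1 to 2 with either of these and to 0 without the filter (0 to 3 over omitted libraries). The substrates and transport targets went from 3 to 0 without the filter (1 to 3), the FOXO targets from 8 to 5 (5 to 9), the osmotic genes from 2 to 1 (1 to 2), and the other glucocorticoid-responsive genes from 11 to 5 (8 to 12). The cause was not tested.

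The samples share only replicate numbers: correlations of the deviations of same-numbered libraries were −0.089, −0.044 and −0.059, and none correlated best with its own number. With the replicate block 439 genes were higher and 249 lower, and calls were 0 in the SGK regulators, 1 in the substrates and 1 in the osmotic list, with the calls of Tsc22d3, Irs2, Txnip, Nedd4 and Slc38a2 among those lost.

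Signs of uncalled values near 0 turned for Fkbp5 (−0.042 to 0.0049 over omitted libraries), Hsp90ab1 (−0.037 to 0.0027), Akr1b3 (−0.11 to 0.00023) and Akt2 (−0.012 to 0.017, −0.0078 with median-of-ratios scaling and −0.030 with protein-coding totals). Depth limits what can be said of Sgk2, Zbtb16 and Hsd11b1, which had at most 1 read per library.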
